A study of Mus musculus with 16 samples.

Results

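Kv4 channels carry the somatodendritic A-type potassium current, and 7 genes encode their pore subunits and their cytosolic partners in these tables: Kcnd1, Kcnd2 and Kcnd3 for Kv4.1, Kv4.2 and Kv4.3, and Kcnip1 to Kcnip4 for the K channel interacting proteins KChIP1 to KChIP4. They were chosen by name, 7 of the 31020 gene names listed, and each name stood on a single entry, so no choice between entries was needed. The libraries came from YFP+ neurons sorted by hand from the basolateral amygdala (BLA) or the gustatory cortex (GC) of B6.Cg-Tg(Thy1-YFP)HJrs/J mice aged 60 to 80 postnatal days. All mice drank 0.5% saccharin for 30 min, and were then given an i.p. injection of 0.15 M LiCl at 2% of body weight (conditioned taste aversion, CTA) or of saline (taste control). Neurons were harvested 4 hr after training, with 4 libraries in each of the 4 groups. No group received lithium without saccharin, so a response to lithium and a response to the pairing cannot be told apart.

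The pore of a Kv4 channel is a tetramer of Kcnd products that opens at subthreshold voltages and inactivates quickly. The resulting A-type current delays firing, spaces action potentials and limits how far they spread back into dendrites. KChIPs are calcium-binding proteins of the neuronal calcium sensor family. They bind the cytoplasmic N-terminus of the pore subunit, raise the number of channels at the surface, and alter how fast the current inactivates and recovers. Dipeptidyl-peptidase-like proteins join the same complex through the membrane. In principal neurons of the forebrain, Kv4.2 and Kv4.3 are the usual pore subunits, and Kv4.2 is regulated by kinases and by activity.

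YFP in this strain is driven by the Thy1 promoter, which labels a subset of projection neurons, so the libraries describe that subset and not all neurons of either region. Slc17a7, the vesicular glutamate transporter of cortical and amygdalar projection neurons, lay between 644 and 961 TPM (the level unit of these tables, corrected for transcript length and scaled so that each library has the same total) in the 16 libraries. The astrocyte marker Aqp4 was at most 1.37 TPM in the BLA and at most 6.07 TPM in the GC. The myelin gene Mbp reached 76.1 TPM in the BLA and 207 TPM in the GC. GC libraries listed more entries above 0 (17982 to 18340) than BLA libraries (15850 to 17202), and the depth of the libraries is unknown, since TPM does not keep it. Markers of astrocytes summed to between 4.82 and 39.4 TPM in the BLA and between 77.6 and 208 TPM in the GC, and those of oligodendrocytes to between 14.8 and 127 TPM and between 110 and 401 TPM. The part of these cells in the differences between regions was not tested. The growth protocol speaks of 2 groups of 4 mice for all samples, so BLA and GC libraries may share mice, but the labels do not say which libraries would then belong together. Region p-values treat the libraries as independent. In bulk libraries of this kind, fewer expressing cells and less RNA per cell cannot be told apart.

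The members lie on 7 chromosomes of GRCm38. The pore genes are Kcnd1 (chrX:7822289-7838280, plus strand), Kcnd2 (chr6:21215503-21729805, plus strand) and Kcnd3 (chr3:105452330-105674002, plus strand). The KChIP genes all lie on the minus strand: Kcnip1 (chr11:33629339-33993152), Kcnip2 (chr19:45791839-45816061), Kcnip3 (chr2:127456498-127522094) and Kcnip4 (chr5:48389502-49524907). Their exons overlapped annotated genes of the opposite strand over 165 bases in Kcnd3 (Kcnd3os) and over 168 bases (5730480H06Rik) and 99 bases (Gm20700) in Kcnip4, and reads there cannot be assigned to a strand, since the counting is not stated to use it. 5730480H06Rik itself averaged 0.83 TPM in the BLA and 2.73 TPM in the GC.

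RefSeq transcription start sites were available for 6 of the 7 genes, with 11 windows of the 250 bases upstream of a start. Windows of Kcnd3, Kcnip1 and Kcnip3 are printed because these are the members whose level differed between regions or was without overlap between training groups, and that of Kcnip4 because it and Kcnip3 are the most abundant KChIPs. Each is on GRCm38.p6, reads 5′ to 3′ on the strand of its gene and ends at the base before the start, and capitals mark a motif match. The Kcnd3 window is chr3:105451640-105451889 (plus strand) and the printed Kcnip3 window is chr2:127522095-127522344 (minus strand). The first Kcnip1 window is chr11:33993194-33993443, the second is chr11:33843687-33843936 at a start further into the gene, and the printed Kcnip4 window is chr5:49285660-49285909, all on the minus strand. Other windows of Kcnip1 (chr11:33680683-33680932), Kcnip3 (chr2:127521393-127521642) and Kcnip4 (chr5:48599683-48599932) held none of the motifs searched below and are not printed. A further Kcnip3 window, chr2:127482500-127482749, held a GC box and no AP-1 pattern, and is not printed either.
Kcnd3: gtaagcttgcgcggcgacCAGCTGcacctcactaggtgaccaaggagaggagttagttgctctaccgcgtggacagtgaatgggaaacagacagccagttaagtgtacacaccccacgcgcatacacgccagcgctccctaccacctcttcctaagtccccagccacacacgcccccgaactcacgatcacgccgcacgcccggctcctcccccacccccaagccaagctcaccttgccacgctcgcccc
Kcnip1, first window: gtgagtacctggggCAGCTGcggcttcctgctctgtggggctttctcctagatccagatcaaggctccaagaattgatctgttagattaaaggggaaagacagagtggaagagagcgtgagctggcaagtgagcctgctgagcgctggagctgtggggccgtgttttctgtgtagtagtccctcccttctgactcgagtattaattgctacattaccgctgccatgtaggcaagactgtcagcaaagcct
Kcnip1, second window: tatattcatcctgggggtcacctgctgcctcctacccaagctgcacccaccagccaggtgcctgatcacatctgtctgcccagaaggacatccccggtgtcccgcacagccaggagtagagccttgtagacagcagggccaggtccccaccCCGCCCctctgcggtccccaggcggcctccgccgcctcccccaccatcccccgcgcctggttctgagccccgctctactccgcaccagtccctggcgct
Kcnip3: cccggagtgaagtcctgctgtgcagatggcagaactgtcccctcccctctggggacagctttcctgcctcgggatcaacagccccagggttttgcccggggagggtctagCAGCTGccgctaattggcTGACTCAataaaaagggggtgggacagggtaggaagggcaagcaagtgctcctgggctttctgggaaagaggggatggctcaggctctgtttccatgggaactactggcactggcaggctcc
Kcnip4: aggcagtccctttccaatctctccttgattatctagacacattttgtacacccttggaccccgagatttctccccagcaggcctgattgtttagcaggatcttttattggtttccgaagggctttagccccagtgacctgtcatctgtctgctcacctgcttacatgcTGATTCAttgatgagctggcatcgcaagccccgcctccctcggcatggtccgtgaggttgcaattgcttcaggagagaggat

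The motifs searched, on both strands, were the cAMP response element TGACGTCA, the AP-1 pattern TGANTCA, N being any base, and the EGR site GCGTGGGCG. The E-boxes CACGTG and CAGCTG and the GC box GGGCGG were searched likewise. No printed match overlapped another. CAGCTG was found in a window of Kcnd3 (232 bases upstream of the start), of Kcnip1 (236 bases) and of Kcnip3 (140 bases). These are 3 of the 11 member windows, against 13.0% of all 32851 RefSeq windows of this length. The AP-1 pattern was found in a window of Kcnip3 (as TGACTCA, 122 bases upstream) and of Kcnip4 (as TGATTCA, 82 bases). These are 2 of the 11 member windows, against 6.75% of all windows. GC boxes stood in windows of Kcnd2, Kcnip1, Kcnip2 and Kcnip3, 4 of the 11 member windows, against 32.7% of all windows. Those of Kcnd2, Kcnip2 and Kcnip3 are in windows that are not printed, that of Kcnip3 120 bases upstream of its start. In the second Kcnip1 window the box is written in the opposite orientation, CCGCCC. The cAMP response element, the EGR site and CACGTG were found in none of the 11 windows, against 1.55%, 0.536% and 6.02% of all windows, which says only that these letters are not in these windows.

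Kv4 pore transcripts were dominated by Kcnd2 and Kcnd3 in both regions. In the BLA they stood at about the same level, with means of 58.0 TPM ± 17.6 (SD, n = 8) for Kcnd2 and 60.1 TPM ± 13.2 (SD, n = 8) for Kcnd3, and Kcnd3 was the higher of the pair in 4 of 8 libraries. In the GC, Kcnd2 was at 60.4 TPM ± 11.0 (SD, n = 8) and Kcnd3 at 36.0 TPM ± 7.64 (SD, n = 8), and Kcnd2 was higher in 8 of 8 libraries. Kcnd1 was the lowest pore transcript in both regions, with 6.78 TPM ± 9.14 (SD, n = 8) in the BLA and 7.46 TPM ± 6.24 (SD, n = 8) in the GC. Kcnd3 made up 31.8% to 37.3% of the pore transcripts in the 8 GC libraries, a narrow band, and 32.1% to 65.9% in the 8 BLA libraries.

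Of the KChIP transcripts, Kcnip3 and Kcnip4 were the abundant ones. In the GC, Kcnip3 was at 135 TPM ± 31.4 (SD, n = 8) and Kcnip4 at 133 TPM ± 45.1 (SD, n = 8), and their order was not fixed, since Kcnip3 was higher in 5 of 8 libraries. In the BLA, Kcnip4 was at 91.3 TPM ± 23.8 (SD, n = 8) and Kcnip3 at 68.8 TPM ± 25.3 (SD, n = 8), with Kcnip4 higher in 4 of 8 libraries. Kcnip2, which in the heart is the partner of Kv4 in the transient outward current, was at 17.7 TPM ± 8.95 (SD, n = 8) in the BLA and 21.4 TPM ± 5.51 (SD, n = 8) in the GC. Kcnip1, known in the forebrain mainly from GABAergic interneurons, was the lowest KChIP in both regions, at 3.70 TPM ± 3.15 (SD, n = 8) in the BLA and 8.59 TPM ± 4.11 (SD, n = 8) in the GC. Ordered by level, the neighbours that kept their order in every library were Kcnd2 over Kcnip2 in the BLA, and in the GC Kcnip4 over Kcnd2, Kcnd2 over Kcnd3, Kcnd3 over Kcnip2, and Kcnip2 over Kcnip1. All other neighbours exchanged places in at least 2 of the 8 libraries of a region.

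**Figure D1:**
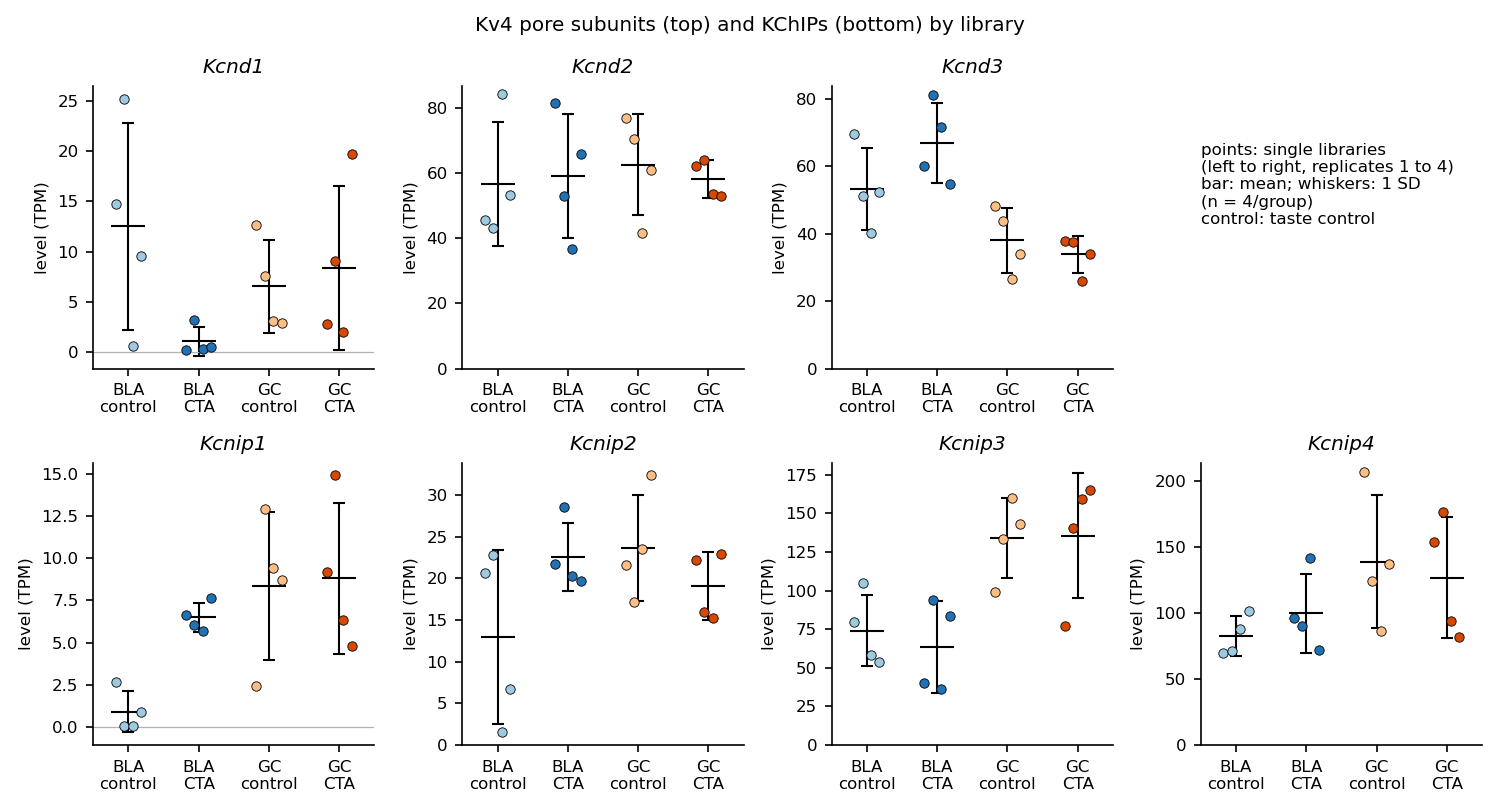
Level in TPM of the 3 Kv4 pore subunits (top row) and the 4 KChIPs (bottom row) in each library, with points for replicates 1 to 4 of each group from left to right, a bar for the mean and whiskers of 1 SD (n = 4/group), on an axis of its own for each gene. Kcnd3 is highest in the BLA groups, Kcnip3 in the GC groups, and the 4 Kcnip1 values of taste control BLA neurons lie below those of all other libraries except a taste control GC library at 2.40 TPM.

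The balance between partners and pores differed between the regions. Summed over the 4 genes, Kcnip transcripts lay between 148 and 219 TPM in the 8 BLA libraries and between 263 and 348 TPM in the 8 GC libraries, without overlap. Summed over the 3 pore genes, Kcnd transcripts lay between 109 and 142 TPM in the BLA and between 71.4 and 138 TPM in the GC, with overlap. The ratio of the sums, which no rescaling of a library can move, was 1.47 ± 0.245 (SD, n = 8) in the BLA, with a range of 1.16 to 1.88, and 2.95 ± 0.562 (SD, n = 8) in the GC, with a range of 2.37 to 3.92. Every GC library had more KChIP transcript per Kv4 transcript than every BLA library. Within a region the training groups overlapped in this ratio, at 1.40 ± 0.200 (SD, n = 4) in taste control and 1.54 ± 0.295 (SD, n = 4) in CTA for the BLA, and at 2.99 ± 0.751 (SD, n = 4) and 2.91 ± 0.410 (SD, n = 4) for the GC. The sums and ratios were not tested, since they are scores over the chosen genes. Taken singly, each Kcnip gene overlapped between the regions. Of the 15191 genes tested over both trainings, 4.59% had all BLA libraries below all GC libraries.

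**Figure D2:**
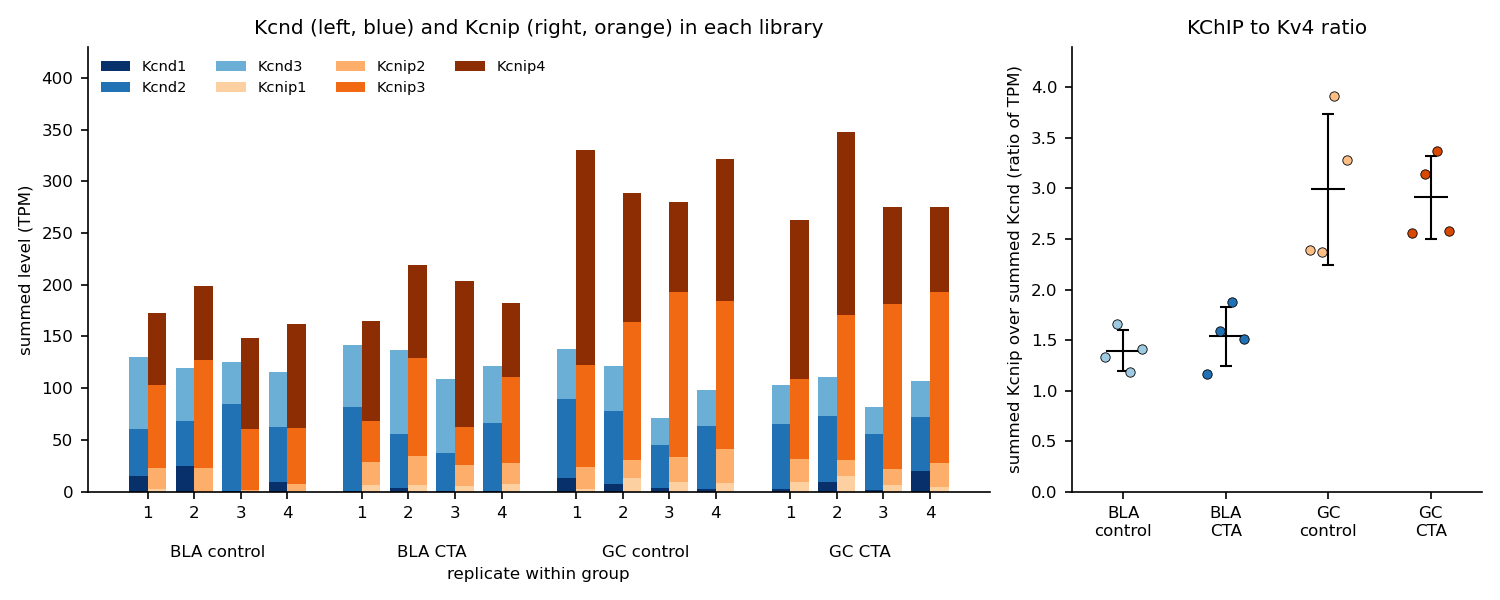
Summed TPM of the Kcnd genes (left bar of each pair, blues) and the Kcnip genes (right bar, oranges) stacked by gene in each of the 16 libraries, and, at the right, the ratio of the Kcnip sum to the Kcnd sum per library with the mean and 1 SD of each group (n = 4/group). The ratio is between 1.16 and 1.88 in the BLA libraries and between 2.37 and 3.92 in the GC libraries.

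The regions were compared gene by gene over both trainings with limma on log2(TPM + 1), training being a term of the model. Values of the 2 tables were set side by side because TPM is scaled within each library and both tables list the same entries. Of the 7 members 3 passed an adjusted p of 0.05, with Kcnd3 higher and Kcnip1 and Kcnip3 lower in the BLA than in the GC. Over all 15191 genes tested 19.7% passed, 4.24% higher and 15.4% lower, so that the regions differed widely and a call is not particular to the members. The median of all genes was itself at -0.23 on the log2 scale. With median-ratio rescaling, which brings that median to -0.04, the split of calls moved from 644 higher and 2342 lower to 1172 higher and 1455 lower, and with quantile normalization to 1076 and 1425.

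Kcnd3 was measured in taste control BLA neurons at 69.7, 51.2, 40.1 and 52.5 TPM and in CTA BLA neurons at 60.1, 81.1, 71.6 and 54.8 TPM. In GC neurons it was at 48.2, 43.7, 26.6 and 34.1 TPM after taste control and at 37.8, 37.6, 25.9 and 34.1 TPM after CTA. All BLA libraries except 1 of taste control were above all GC libraries. The difference was 0.72 on the log2 scale (SE 0.18, adjusted p = 0.006236), a ratio of mean TPM of 1.67 (exact permutation p = 0.001633, two-sided, 4900 arrangements within training). The call held in each alternative run for this comparison, with adjusted p between 0.0004827 and 0.01525.

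Kcnip3 was lower in the BLA, where taste control libraries had 79.6, 105, 58.6 and 53.7 TPM and CTA libraries 40.1, 94.2, 36.1 and 83.6 TPM. GC libraries had 98.9, 134, 160 and 143 TPM after taste control and 77.1, 140, 159 and 165 TPM after CTA. The regions overlapped, with 4 BLA libraries above the lowest GC library, at 77.1 TPM after CTA. The difference was -1.01 on the log2 scale (SE 0.22, adjusted p = 0.002953), with GC at 1.96 times the mean of the BLA (exact permutation p = 0.002449, two-sided), and the call held in each alternative run (adjusted p between 0.001509 and 0.02624). The product of Kcnip3 is also known as DREAM or calsenilin, a calcium-dependent transcriptional repressor.

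Kcnip4, whose product includes a form that slows the inactivation of Kv4 currents, differed in the same direction without passing. It was at 69.8, 71.4, 88.1 and 101 TPM in taste control BLA and at 96.4, 89.9, 142 and 71.7 TPM in CTA BLA. In the GC it was at 207, 125, 86.6 and 137 TPM after taste control and at 154, 177, 93.8 and 82.1 TPM after CTA. The ranges overlapped broadly, and the difference was -0.50 (SE 0.20, adjusted p = 0.09269, exact permutation p = 0.04286). It passed with CTA BLA replicate 3 left out (adjusted p = 0.04108) and with CTA GC replicate 4 left out (adjusted p = 0.04404).

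Kcnip1 was lower in the BLA by -1.31 on the log2 scale (SE 0.42, adjusted p = 0.03473, exact permutation p = 0.01673). This averages a difference of -2.33 in taste control neurons and of -0.29 in CTA neurons. In the BLA it was at 2.64, 0.07, 0.03 and 0.85 TPM after taste control and at 6.63, 6.04, 5.69 and 7.66 TPM after CTA. In the GC it was at 2.40, 12.9, 9.45 and 8.71 TPM after taste control and at 9.18, 14.9, 6.36 and 4.77 TPM after CTA. The low taste control BLA libraries also enter the training comparison of Kcnip1 below. The 16 markers of GABAergic neurons, the cells Kcnip1 is best known from, were summed in each library. The sums were 66.4 to 208 TPM in taste control BLA libraries and 228 to 262 TPM in taste control GC libraries. After CTA they were 103 to 157 TPM and 154 to 320 TPM. Single markers went both ways: of 11 tested over both trainings, 4 were higher and 7 lower in the BLA. Gad2 averaged 20.4 TPM in the BLA and 7.64 TPM in the GC, and Slc32a1 3.15 TPM and 1.33 TPM. Lamp5 averaged 67.8 TPM in the BLA and 149 TPM in the GC. The part of these markers in the regional difference was not tested. The Kcnip1 call did not hold under median-ratio rescaling (adjusted p = 0.07609), quantile normalization (0.2047) or without a filter on low values (0.06582), nor with any 1 of 7 libraries left out, namely taste control BLA replicates 2, 3 and 4, taste control GC replicates 2, 3 and 4, and CTA GC replicate 2 (adjusted p up to 0.07839). The 3 remaining members did not pass: Kcnd1 at -0.75 (SE 0.61, adjusted p = 0.4367), Kcnip2 at -0.51 (SE 0.39, adjusted p = 0.4044), and Kcnd2 at -0.09 (SE 0.19, adjusted p = 0.7804), whose sign turned to 0.13 with median-ratio rescaling and to 0.0059 with quantile normalization.

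Within each training the same contrast rested on 4 libraries a region. In taste control neurons 1 of 7 members passed, Kcnip1 at -2.33 (SE 0.60, adjusted p = 0.03441), against 7.97% of 15085 genes tested (1.83% higher and 6.15% lower). Its 4 BLA libraries averaged 0.897 TPM and its 4 GC libraries 8.37 TPM, with 3 of 4 BLA libraries below all GC libraries (exact permutation p = 0.05714, two-sided). Kcnip3 was at -0.87 (SE 0.25, adjusted p = 0.0517), Kcnip4 at -0.69 (SE 0.26, adjusted p = 0.1338) and Kcnd3 at 0.48 (SE 0.27, adjusted p = 0.3214). The Kcnip1 call ended with median-ratio rescaling (adjusted p = 0.05645), quantile normalization (0.1323), no filter (0.08007), or any of replicates 2, 3 and 4 of either region left out (up to 0.1135), while Kcnip3 passed without taste control BLA replicate 2 (0.02421) and with a filter at a mean of 5 TPM (0.04561). The count of all genes called fell from 1203 to between 677 and 786 when any 1 of the 4 taste control GC libraries was left out.

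In CTA neurons 1 of 7 members passed, Kcnd3 at 0.96 (SE 0.24, adjusted p = 0.03599), against 6.59% of 15077 genes tested (1.71% higher and 4.88% lower). All 4 BLA libraries were above all 4 GC libraries, 66.9 TPM ± 11.8 against 33.9 TPM ± 5.55 (SD, n = 4/group), as were those of 3.52% of all genes tested (exact permutation p = 0.02857, the smallest possible for 4 against 4). Kcnip3 was at -1.15 (SE 0.35, adjusted p = 0.08073) and Kcnd1 at -1.96 (SE 0.68, adjusted p = 0.1172), and Kcnip1 at -0.29 (SE 0.43, adjusted p = 0.7556), where quantile normalization gave 0.091. The Kcnd3 call ended without the variance trend (adjusted p = 0.06166), and with CTA BLA replicate 2 or 3 or any CTA GC library left out (up to 0.107), while Kcnip3 passed without CTA BLA replicate 2 (0.04488) and in a fit of all 16 libraries (0.0333). The count of all genes called fell from 994 to between 535 and 612 when any 1 of the 4 CTA GC libraries was left out.

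**Figure D3:**
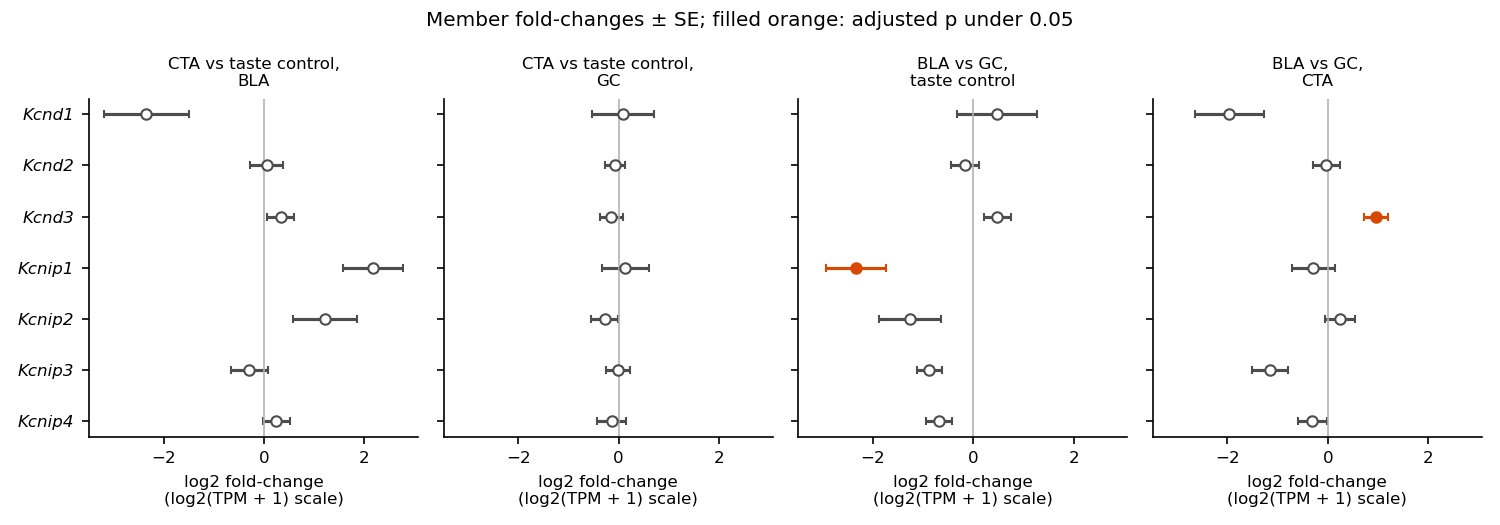
Log2 fold-change ± SE of each member on the log2(TPM + 1) scale from limma, for CTA against taste control in the BLA and the GC and for BLA against GC within each training (n = 4/group), with filled orange points for an adjusted p under 0.05. The filled points are Kcnip1 in taste control neurons (-2.33) and Kcnd3 in CTA neurons (0.96), and no member is filled in the training comparisons.

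Training was compared within each region. In BLA neurons no member passed, and neither did any of the 14611 genes tested (0.0%) with limma, while 568 (3.89%) had an unadjusted p under 0.05. Among the members, 2 of 7 had such a p: Kcnip1 and Kcnd1. The adjusted p of all 7 was 0.9987, so the values that follow describe these libraries.

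Kcnip1 was at 2.64, 0.07, 0.03 and 0.85 TPM in taste control BLA neurons and at 6.63, 6.04, 5.69 and 7.66 TPM after CTA. The CTA libraries lay close together, and all of them were above all taste control libraries, as were those of 1.31% of all genes tested. The log2 difference was 2.18 (SE 0.60, unadjusted p = 0.003003, exact permutation p = 0.02857), between 1.95 and 2.56 with any 1 library left out, but 3.74 with a pseudocount of 0.1 and 0.98 with one of 5, as the control values are near 0. As a share of the KChIP transcripts of a library, Kcnip1 made up 0.02% to 1.53% after taste control and 2.76% to 4.20% after CTA. In the GC the training groups overlapped, and Kcnip1 differed by 0.13 (SE 0.47, adjusted p = 0.9996). The difference between the regions in the training effect was 2.05 (SE 0.73, unadjusted p = 0.01123, adjusted p = 0.9995), so a regional difference in the response of Kcnip1 was not called.

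Because Kcnip1 is known from interneurons, the markers of GABAergic neurons were set beside it. The 16 markers summed to between 66.4 and 208 TPM in taste control BLA libraries and to between 103 and 157 TPM after CTA, so that the training groups overlapped. Lamp5 had the highest mean of the 16 markers in both regions, at 67.8 TPM in the BLA and 149 TPM in the GC. The sums in the GC overlapped between the training groups as well. Gad1, which encodes the GABA-synthesizing enzyme GAD67, was at 1.31, 0.84, 0.15 and 1.15 TPM in taste control BLA and at 10.3, 0.03, 4.90 and 0.06 TPM after CTA. Gad2, which encodes GAD65, was at 30.6, 33.1, 2.41 and 2.16 TPM in taste control BLA and at 17.2, 22.5, 24.6 and 30.4 TPM after CTA, and Slc32a1, the vesicular GABA transporter, at 2.01, 5.11, 4.58 and 0.03 TPM and at 10.4, 0.00, 2.97 and 0.08 TPM. None of the 3 separated the training groups. After CTA, Gad1 and Slc32a1 were both highest in replicate 1, next in replicate 3, and at most 0.08 TPM in replicates 2 and 4. Gad2 did not share that order, and in taste control BLA libraries the 3 had no common order. Pvalb was listed at 0 in all 8 BLA libraries and lay between 2.05 and 81.0 TPM in the GC. The part of these markers in the level of Kcnip1 was not tested.

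Kcnd1 was at 14.7, 25.2, 0.56 and 9.53 TPM in taste control BLA neurons and at 0.19, 3.18, 0.32 and 0.54 TPM after CTA. The groups overlapped through a single control library, replicate 3, and 3 of 4 CTA libraries were below all control libraries. The log2 difference was -2.35 (SE 0.84, unadjusted p = 0.01584, adjusted p = 0.9987, exact permutation p = 0.05714), with means of 12.5 TPM ± 10.3 and 1.06 TPM ± 1.42 (SD, n = 4/group). It was -1.32 with a pseudocount of 5 and -3.30 with one of 0.1. In the GC it was at 12.7, 7.58, 3.06 and 2.85 TPM after taste control and at 2.76, 9.01, 1.99 and 19.7 TPM after CTA, with overlap and a difference of 0.09 (SE 0.62, adjusted p = 0.9996). The difference between the regions in the training effect was -2.43 (SE 1.12, unadjusted p = 0.04313, adjusted p = 0.9995). Kv4.1, the product of Kcnd1, is the least studied pore subunit of the family and is usually found at low levels in the forebrain.

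Kcnip2 was at 20.6, 22.8, 1.58 and 6.66 TPM in taste control BLA neurons and at 21.7, 28.5, 20.3 and 19.7 TPM after CTA. Replicates 3 and 4 of the control group stood below the 6 other BLA libraries, and the groups overlapped. The log2 difference was 1.21 (SE 0.64, unadjusted p = 0.08138, adjusted p = 0.9987), and it was between 0.56 and 1.63 with any 1 library left out. Of the GABAergic markers given above, Gad2 was low in the same pair of control libraries, Slc32a1 only in replicate 4 and Gad1 only in replicate 3. Their part in the level of Kcnip2 was not tested.

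The major members differed little by training in the BLA. Kcnd2 was at 45.7, 43.3, 84.4 and 53.4 TPM after taste control and at 81.4, 53.0, 36.7 and 65.7 TPM after CTA, a log2 difference of 0.06 (SE 0.33). Kcnd3 differed by 0.33 (SE 0.27), Kcnip3 by -0.30 (SE 0.36) and Kcnip4 by 0.24 (SE 0.27), each with overlap. In the GC 0 of 15278 genes passed (0.0%) with limma and 573 (3.75%) had an unadjusted p under 0.05, among them no member. Log2 differences of the members lay between -0.28 for Kcnip2 and 0.13 for Kcnip1, with SEs between 0.21 for Kcnd2 and 0.62 for Kcnd1, and all 7 overlapped between the training groups, which 2.21% of all genes tested did not. The signs of Kcnd1, Kcnd2, Kcnip1, Kcnip3 and Kcnip4 there turned with single libraries left out. For the term that compares the training effect between regions, 0 of 15191 genes passed (0.0%) with limma, and 601 (3.96%) had an unadjusted p under 0.05, including Kcnip1 and Kcnd1.

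Correlations between members from library to library were also computed. Over the 21 pairs of members in each region, 42 relations in all, none passed adjustment for Pearson's r or for Spearman's rho, and the libraries of a region share its training groups. For r, 6 of the 42 had an exact permutation p under 0.05. The values that follow describe these libraries. Kcnip3 and Kcnip4 ran in opposite directions in both regions, with r = -0.82 and rho = -0.74 in the BLA (n = 8, exact permutation p = 0.00997 and 0.04583, adjusted p = 0.1047 and 0.275). In the GC they gave r = -0.70 and rho = -0.83 (n = 8, exact permutation p = 0.05154 and 0.01538, adjusted p = 0.3013 and 0.1292). The sign was also negative within each training group of 4 libraries, at -0.89 for taste control and -0.77 for CTA in the BLA and at -0.94 and -0.61 in the GC. With the 2 libraries farthest from the median of Kcnip3 left out, r was -0.66 in the BLA and -0.84 in the GC. Other pairs in the GC were of like size. Kcnip4 varied with Kcnd2 (r = 0.83, exact permutation p = 0.009053, adjusted p = 0.1047) and Kcnd3 (r = 0.76, 0.02914 and 0.2448). Kcnip3 ran against Kcnd2 and Kcnd3 there (rho = -0.83 each, exact permutation p = 0.01538, adjusted p = 0.1292). In the BLA, Kcnd3 varied with Kcnip2 (r = 0.79, exact permutation p = 0.009945, adjusted p = 0.1047).

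Kcnd2 and Kcnd3 varied in the same direction in the GC, with r = 0.90 and rho = 0.90 (n = 8, exact permutation p = 0.002158 and 0.004563, adjusted p = 0.09063 and 0.1292). Without the 2 libraries farthest from the median of Kcnd2, r was 0.84, and within training groups it was 0.98 for taste control and 0.74 for CTA. The same pair gave r = -0.54 and rho = -0.45 in the BLA (n = 8, exact permutation p = 0.1661 and 0.2675, adjusted p = 0.5299 and 0.7489). Without the 2 libraries farthest from the median of Kcnd2 it gave r = -0.28. The difference between the regions in these relations was not tested.

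**Figure D4:**
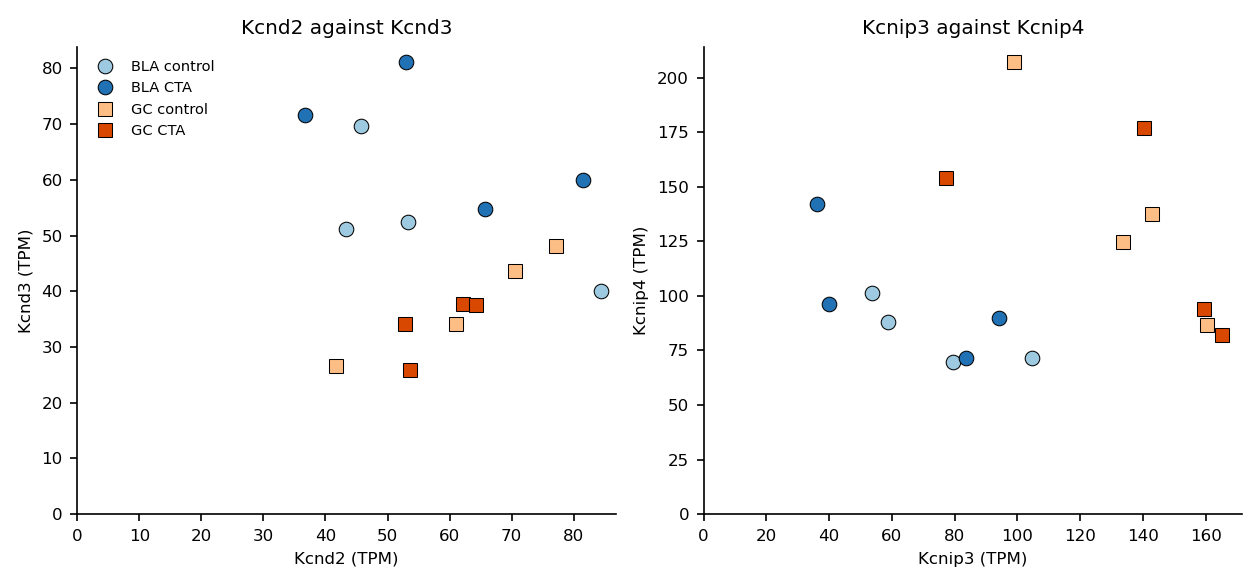
Level in TPM of Kcnd3 against Kcnd2 (left) and of Kcnip4 against Kcnip3 (right), 1 point per library, circles for the BLA and squares for the GC, with light colours for taste control and dark colours for CTA. The GC squares slope upward in the left plot (r = 0.90 on the log2 scale) and downward in the right plot (r = -0.70), and the BLA circles slope downward there too (r = -0.82).

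For each member with a mean of at least 10 TPM, the genes whose log2 levels followed it most closely over the 16 libraries were looked up among 15191 genes. Kcnip3 was followed by Nell2 (r = 0.92) and Slc6a17 (r = 0.91), and Kcnip4 by Tmf1 (r = 0.93) and Pank3 (r = 0.89). Kcnd3 was followed by Zfp608 (r = 0.89) and 4933427D14Rik (r = 0.88), Kcnd2 by Dld (r = 0.88) and Zfp397 (r = 0.87), and Kcnip2 by Ccdc117 (r = 0.90) and Cdpf1 (r = 0.89). These are the highest of many correlations and are given as a description, since the libraries share region and training.

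Another 25 genes of the Kv4 complex and its regulation were followed, 21 of which were tested between regions. Of these, 2 were higher and 4 lower in the BLA over both trainings, against 19.7% of all genes tested (4.24% higher and 15.4% lower), with a median of -0.28 against -0.23 for all genes tested. None passed between training groups in either region. Of the other partners, Dpp6 was at 137 TPM in the BLA and 126 TPM in the GC (log2 difference 0.11, SE 0.13, adjusted p = 0.6296) and Dpp10 at 76.2 TPM and 94.2 TPM (-0.28, SE 0.18, adjusted p = 0.298). The dipeptidyl-peptidase-like transcripts were thus of the order of the Kcnd and Kcnip transcripts in both regions, per transcript length. Of the Kcne genes, which encode small membrane subunits, Kcne1, Kcne2, Kcne4 and Kcne5 (listed as Kcne1l) did not reach the mean of 1 TPM needed for this test, and Kcne3 was at 0.26 (SE 0.59, adjusted p = 0.8107).

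Among the other A-type channel genes and their beta subunits, Kcnab3 differed most. It was at 8.59, 2.33, 1.66 and 10.5 TPM in taste control BLA neurons and at 3.10, 3.99, 1.43 and 11.2 TPM after CTA. In the GC it was at 73.1, 69.9, 67.2 and 43.0 TPM after taste control and at 75.0, 19.3, 29.7 and 44.0 TPM after CTA. Every GC library was above every BLA library, as for 4.59% of all genes tested, and the GC mean was 9.85 times that of the BLA (log2 difference -3.22, SE 0.38, adjusted p = 4.027e-06, exact permutation p = 0.000408, the smallest possible). Kcnab2, another beta subunit, was lower in the BLA by -0.49 (SE 0.14, adjusted p = 0.01512), a call lost under median-ratio rescaling (0.2841). Kcna4, encoding Kv1.4, was at 0.12 (SE 0.28, adjusted p = 0.8087).

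Of 10 scaffold and kinase genes that act on Kv4, 4 passed, against 19.7% of all genes tested. Akap5, the anchor of protein kinase A that binds Kv4.2, was higher in the BLA by 0.83 (SE 0.18, adjusted p = 0.00235) and Mapk3, which encodes ERK1, by 0.73 (SE 0.14, adjusted p = 0.000728). Dlg4, encoding PSD-95, was lower by -0.72 (SE 0.15, adjusted p = 0.00171) and Camk2a, a kinase of dendritic spines, by -0.49 (SE 0.10, adjusted p = 0.001518), a call lost under median-ratio rescaling (0.1204). Of 3 genes linked to the product of Kcnip3, 0 passed with limma between regions over both trainings. There, 0 had an unadjusted p under 0.05. In the training comparison of the BLA, 1 of the 21 genes tested had an unadjusted p under 0.05, against 3.89% of all genes tested: Fos, an immediate early gene repressed by DREAM in other systems. Fos was at 17.3, 5.78, 8.64 and 16.4 TPM after taste control and at 40.9, 32.0, 19.9 and 34.0 TPM after CTA. All CTA libraries were above all taste control libraries, as were those of 1.31% of all genes tested. The log2 difference of Fos was 1.40 (SE 0.44, adjusted p = 0.9987). Between regions in taste control, limma gave Fos -1.16 (SE 0.41, unadjusted p = 0.01587, adjusted p = 0.1154). Its region by training term was 1.29 (SE 0.56, unadjusted p = 0.03383, adjusted p = 0.9995).

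**Figure D5:**
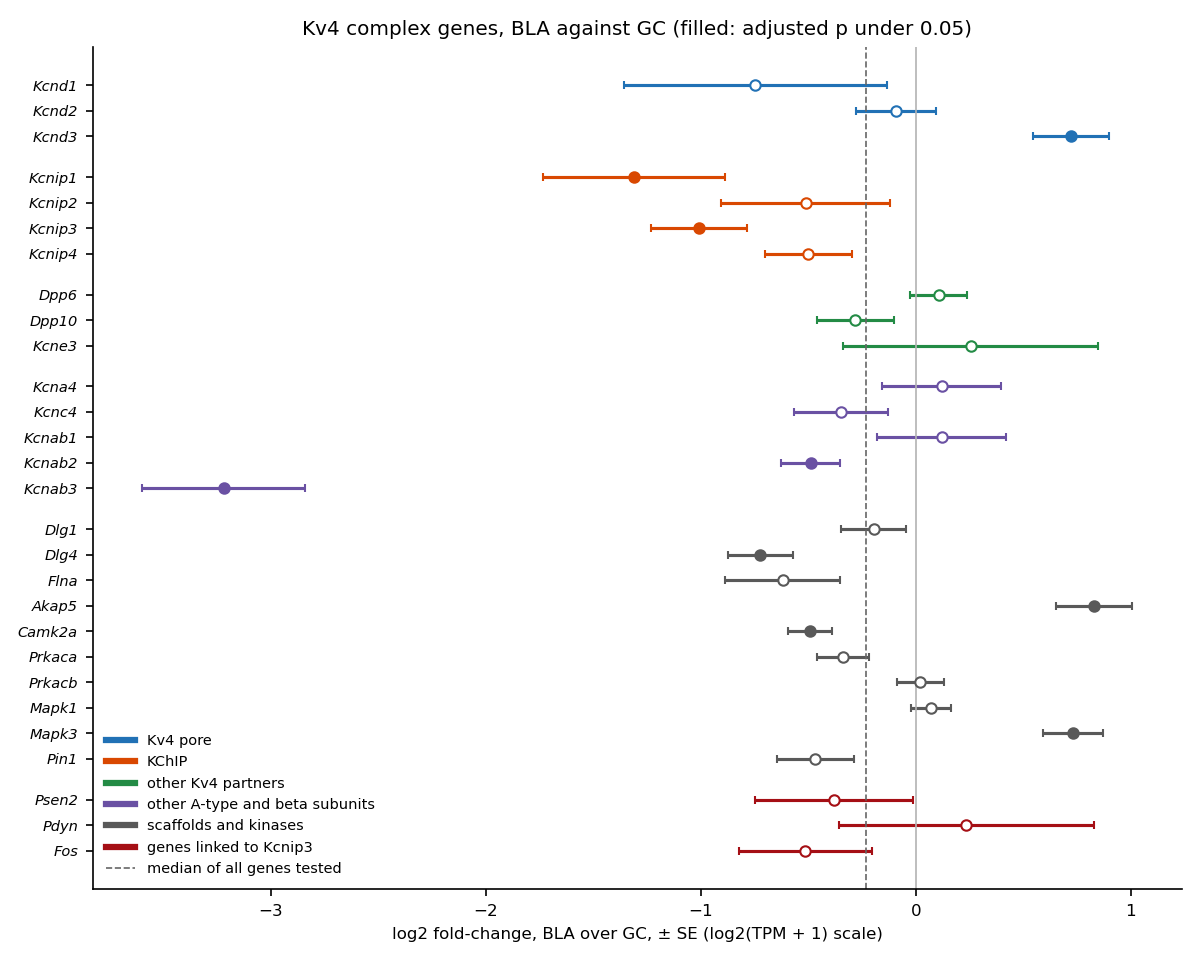
Log2 fold-change of BLA over GC ± SE from limma over both trainings (n = 8 per region) for the 7 members and the 21 other Kv4 complex genes tested, grouped by role, with filled points for an adjusted p under 0.05 and a dashed line at the median of all genes tested (-0.23). Kcnd3, Akap5 and Mapk3 lie to the right of 0 among the filled points, and Kcnab3 lies farthest to the left at -3.22.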

How the data were processed

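Deposited were 2 tables of TPM, 1 per region, with 31469 entries and 8 libraries each. Per the paper and the labels, the authors used TopHat (version not given in the sources used here) with mm10, and their own scripts turned unique reads into TPM. Columns holding the authors' group means, fold-changes and p-values were not used. TPM keeps no counts, so depth is unknown and precision comes only from the spread between libraries.

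Genes averaging at least 1 TPM in the libraries of a comparison were tested on log2(TPM + 1) in R 4.3.3 with limma 3.58.1, a variance trend and Benjamini-Hochberg adjustment, and called at an adjusted p under 0.05. A fold-change on this scale understates the change of low genes. The fit was tested on simulated data. Single members were also tested by two-sided exact permutation of mean TPM (70 arrangements of 4 against 4, smallest p 0.0286, or 4900 within training, smallest p 0.000408). Libraries are separate samples by their labels, but the labels tie none to a named animal, and p-values measure the spread between these samples, taking BLA and GC libraries as independent.

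Permutation p-values for correlations between members were added after the values had been seen, with adjustment over all 42 relations. Members and lists were chosen with earlier results of these data known. Named were all members, the other Kv4 partners, the other complex genes called or with small p-values, the 2 genes most correlated with each member of at least 10 TPM, and markers that define a cell class. Fos was named for the training comparison after its value was seen. Promoter sequences are from RefSeq (GRCm38.p6) and gene positions from GENCODE M21 (GRCm38). Alternatives changed 1 choice at a time. A few genes of these lists are not reported here.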

Additional observations from a re-analysis of the deposited data

Results flagged for a closer look

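Kcnd1 in CTA BLA neurons stood out within its group of 4 libraries. Replicate 2 was at 3.18 TPM and the next library at 0.54 TPM, so that this gap took up 0.883 of the range of the group, which began at 0.19 TPM, above Dixon's critical value for 4 samples. Of 44 groups examined in this way, 1 stood out, and chance alone marks about 1 in 20.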

How the results depend on the processing

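The levels of the members and the calls of Kcnd3 and Kcnip3 between regions over both trainings kept their direction and their side of the threshold in each alternative run. The ratio of KChIP to Kv4 transcripts cannot be moved by rescaling and was examined only with single libraries left out, at 1.41 to 1.51 in the BLA and 2.81 to 3.03 in the GC. Kcnd2 between regions turned from below 0 to 0.10 in taste control with median-ratio rescaling, to 0.19 and 0.064 in CTA with median-ratio rescaling and quantile normalization, and to 0.13 and 0.0059 over both trainings. Kcnip1 in CTA turned to 0.091 with quantile normalization.

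With single libraries left out, genes called between regions ranged from 677 to 1126 in taste control, from 535 to 1113 in CTA and from 2552 to 2982 over both trainings, and from 0 to 1 for training in the GC. Training values in the GC changed sign in that way for Kcnd1 (-0.44 to 0.49), Kcnd2 (-0.25 to 0.038), Kcnip1 (-0.30 to 0.38), Kcnip3 (-0.16 to 0.23) and Kcnip4 (-0.34 to 0.077), and in the BLA for Kcnd2 (-0.12 to 0.26). Region values did so for Kcnd1 in taste control (-0.041 to 1.32) and Kcnd2 in CTA (-0.20 to 0.18), as did the region by training term of Kcnd2 (-0.043 to 0.33).

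With the replicate number as a block, 750 genes were called between regions in taste control, 642 in CTA and 2578 over both trainings, and 0 between training groups. The calls of Kcnip1 in taste control (adjusted p = 0.09043) and over both trainings (0.09023) and of Kcnd3 in CTA (0.09415) were lost. The labels do not tie the numbers to mice, and the correlations fell short of 0.1 in some pairs of each comparison, so the numbers were not taken to pair the samples. Same-numbered libraries correlated at -0.06 to 0.01 between training groups in the BLA, at 0.04 to 0.13 in the GC, where each of 4 pairs correlated best with its own number, and at -0.10 to 0.10 between regions. The filter at a mean of 5 TPM left Kcnip1 untested between training groups in the BLA and between regions in taste control, and Kcnd1 between regions in CTA. The cause of each change was not tested. TPM gives no depth, so an absence of low transcripts such as Kcnip1 and Kcnd1 cannot be read from values near 0.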
